A study of Macaca fascicularis with 25 samples.

Results

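The 10 identifiers described here are rows of a bulk RNA-seq read count table of 28592 Ensembl gene identifiers made from cynomolgus monkey (Macaca fascicularis) embryos. They were picked from these data for a higher mean level in the 4 Day 18 libraries labelled others than in the Day 18 libraries labelled hypoblast, epiblast and exmc. Their Day 18 levels are therefore a description and carry no test, while the Day 16 and Day 20 libraries did not enter the choice. Each library was amplified by Smart-seq2, which copies whole transcripts from a few cells, out of about 20 cells cut by laser from a cryosection of an embryo with its decidua. At Day 18 there were 3 hypoblast, 3 epiblast and 6 exmc libraries, called the 12 named-lineage libraries below, and the 4 labelled others, titled S4-1 to S4-4 and called others libraries 1 to 4. At Day 20 there were 8 libraries in the title sets E20_1 and E20_2, 4 in each, with no lineage in their labels, and at Day 16 there was 1 library. No treatment, genotype or sex is given, all groups share the same capture and library method, and the labels do not say which regions shared an embryo.

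After implantation the primate embryo includes the epiblast, which forms the body, and the hypoblast, which lines the yolk sac. It also includes an extraembryonic mesenchyme between these and the trophoblast, and the trophoblast itself, which invades the maternal decidua. This list is not complete. The study's capture protocol names putative trophectoderm among its regions, but no library description uses that name, and the labels do not say what others stands for. The files pair the identifiers with no gene names, and 0 of the 10 matched the reference gene table, so no gene role or cell-type marker could be read, and the identity of the captured cells was not checked against markers.

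Total counts per library ran from 2909114 to 10462278, and between 11777 and 18034 identifiers had a count above 0. Exmc library 1 had the lowest of both. In exmc library 3 the most abundant identifier took 32.2% of all counts, against 1.40% to 16.2% in the other libraries, and exmc library 4 had the lowest scaling factor. Levels are given as CPM, read counts brought to a common library total with the scaling factors of TMM (trimmed mean of M values), and are compared only within an identifier because gene lengths were not at hand. In bulk libraries, fewer cells of a type and less RNA per cell cannot be told apart.

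The 10 identifiers were not raised throughout the regions labelled others. They were high in others libraries 1 and 2, while in libraries 3 and 4 most of them lay at the levels of the named lineages. In library 1 all 10 had at least 10 CPM and in library 2 this held for 9, against 3 in library 3 and 2 in library 4. The share of all identifiers at that level was not worked out per library. Libraries 1 and 2 each lay above all 12 named-lineage libraries for all 10 identifiers, a pattern that 2.08% of the 23646 identifiers with a Day 18 count show and that the choice of members favours. Libraries 1 and 2 together held a median of 98.0% of an identifier's CPM in others, with a range of 76.3% to 99.9%. Over all identifiers with a count in others that median share was 49.98%.

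**Figure D1:**
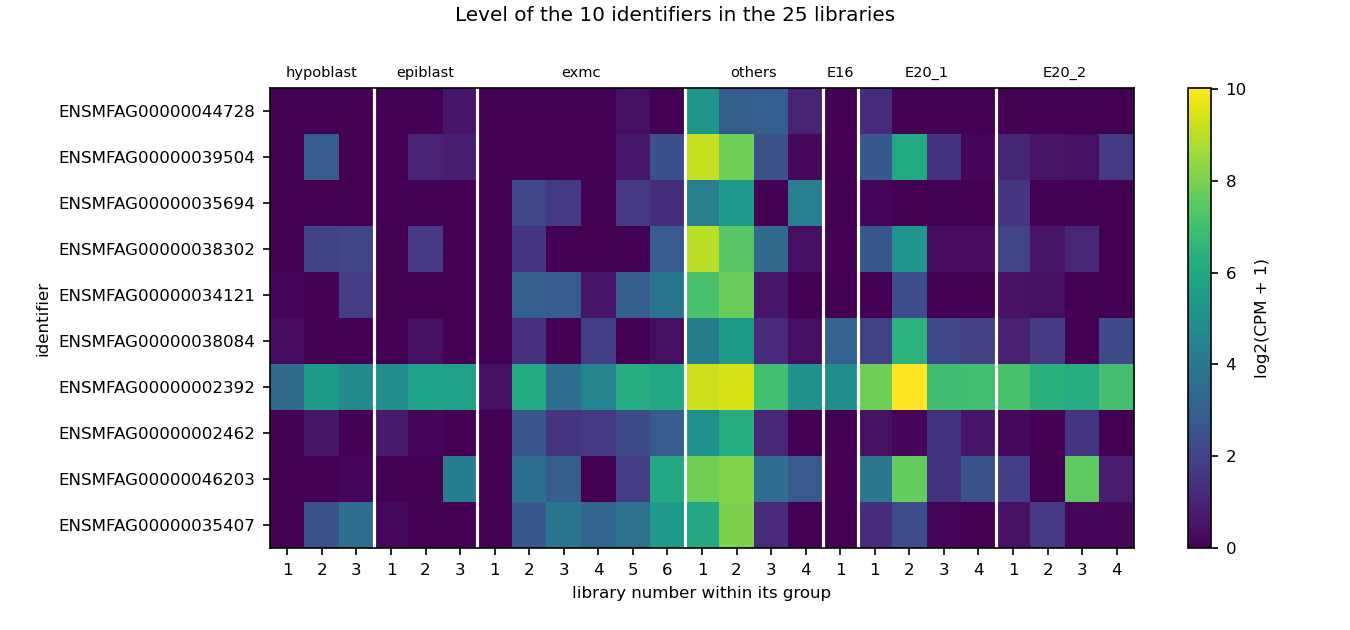
Level of each of the 10 identifiers (rows) in each of the 25 libraries (columns, numbered within their group), as log2(CPM + 1). The bright columns are others libraries 1 and 2, followed by E20_1 library 2 at Day 20, where 5 of the 10 reach 10 CPM.

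ENSMFAG00000044728 was the only one of the 10 in which all 4 others libraries lay above all 12 named-lineage libraries. Such a separation was found for 0.055% of the identifiers with a Day 18 count, and the choice of members favours it. Its levels were 38.2 CPM in others library 1, 6.77 CPM in library 2, 7.04 CPM in library 3 and 0.925 CPM in library 4. The value in library 4 rests on 6 counts. Of the named-lineage libraries, epiblast library 3 had 0.470 CPM from 3 counts, exmc library 5 had 0.277 CPM from 1 count, and the 10 others had a count of 0.

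ENSMFAG00000039504 and ENSMFAG00000038302 shared an order within others, highest in library 1. The former stood at 563 CPM in library 1, 223 CPM in library 2, 4.63 CPM in library 3 and 0.154 CPM in library 4. The latter stood at 498 CPM in library 1 and 171 CPM in library 2, with 54 counts in library 3 and 2 counts, or 0.308 CPM, in library 4. Their highest named-lineage values were 6.09 CPM, in hypoblast library 2, and 6.34 CPM, in exmc library 6. Others libraries 3 and 4 thus lay within the named-lineage range for ENSMFAG00000039504, and library 4 did so for ENSMFAG00000038302. The ratio of library 1 to library 2 was 2.52 for the first and 2.91 for the second.

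Of the 10 identifiers, 7 were highest in others library 2, as were 23.5% of all identifiers with a count in others. ENSMFAG00000035407 showed the steepest tilt among them, with 65.7 CPM in library 1, 262 CPM in library 2, 1.30 CPM in library 3 and a count of 0 in library 4. ENSMFAG00000034121 had 141 CPM in library 1, 217 CPM in library 2, 0.556 CPM in library 3 and a count of 0 in library 4. ENSMFAG00000002462 had 32.03, 72.9 and 1.11 CPM in libraries 1, 2 and 3, and again a count of 0 in library 4. For these 3, a count of 0 in library 4 allows up to 0.462 CPM (3 counts, for counting error only). The named lineages reached 40.7, 13.9 and 6.34 CPM for the 3 in that order, each time in exmc library 6, so others libraries 3 and 4 lay inside the named-lineage range.

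ENSMFAG00000038084 had 17.6 CPM in others library 1, 43.0 CPM in library 2, 1.30 CPM in library 3 and 0.308 CPM in library 4. Its highest named-lineage value was 2.67 CPM, in exmc library 4, which again covers libraries 3 and 4. ENSMFAG00000046203 had 230, 277, 11.1 and 6.01 CPM in libraries 1 to 4. It was also high in exmc library 6, with 64.6 CPM, and in epiblast library 3, with 18.0 CPM, both above others libraries 3 and 4.

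ENSMFAG00000035694 departed from the rest. It had 18.5 CPM in others library 1, 41.0 CPM in library 2 and 18.5 CPM in library 4, but a count of 0 in library 3, which allows up to 0.556 CPM. Library 4 was therefore level with library 1 for this identifier alone of the 10. No hypoblast or epiblast library had a count of it, and 4 of the 6 exmc libraries had 1.47 to 3.36 CPM. ENSMFAG00000002392 was the only member with a count in all 25 libraries. It stood at 607 CPM in others library 1, 698 CPM in library 2, 125 CPM in library 3 and 33.1 CPM in library 4, against 0.329 to 72.3 CPM in the named lineages, so that libraries 1 to 3 lay above that range and library 4 within it.

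**Figure D2:**
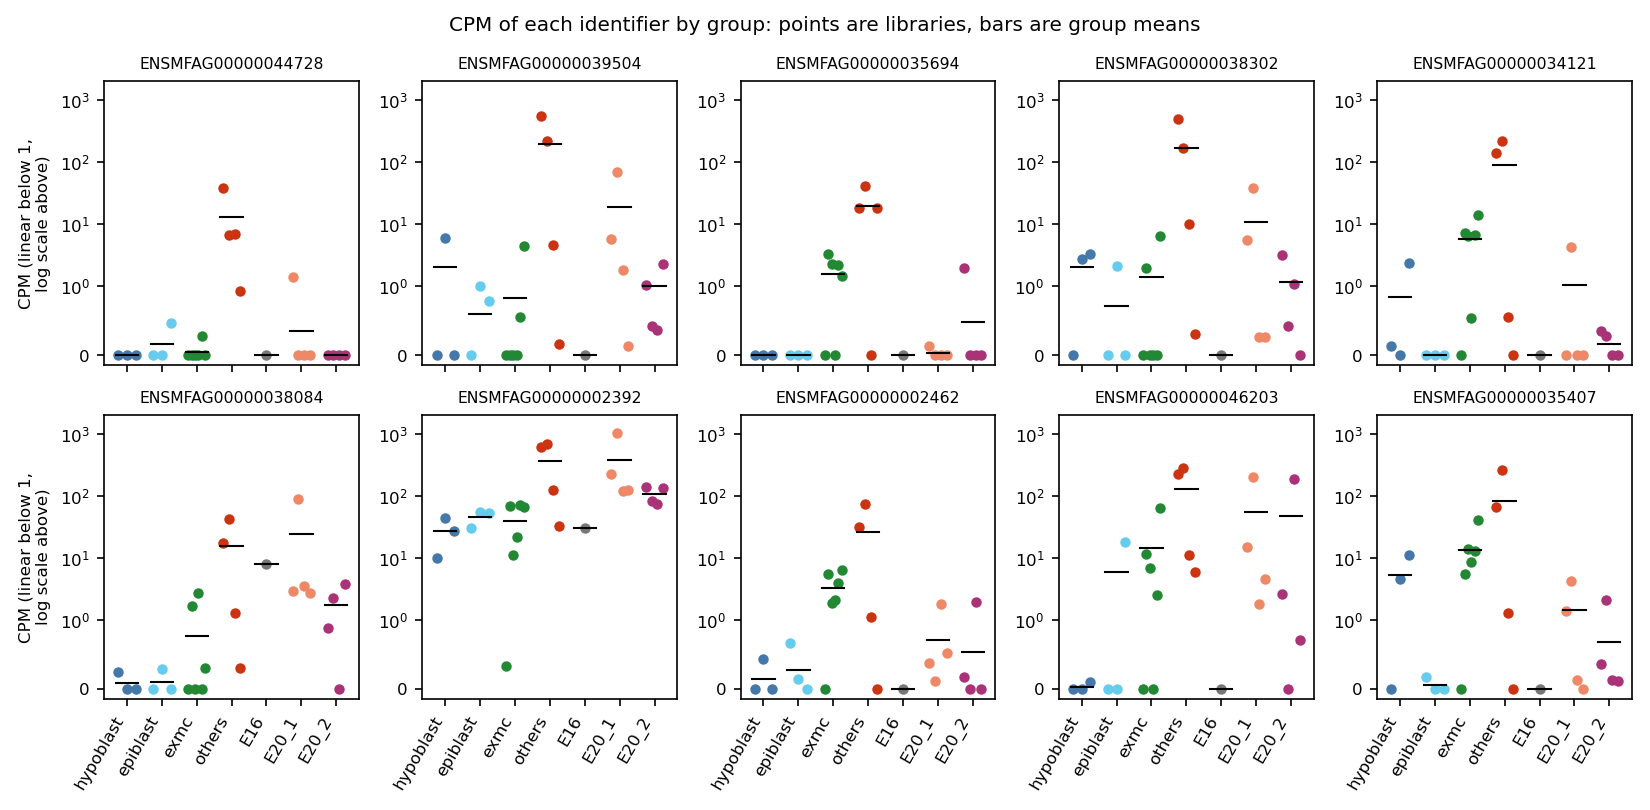
CPM of each identifier by group, on an axis that is linear below 1 CPM and logarithmic above; each point is a library, ordered by number from left to right, and each bar a group mean. The others group spans from 0.925 to 38.2 CPM for ENSMFAG00000044728 and from 0.154 to 563 CPM for ENSMFAG00000039504. Libraries 1 and 2 together held 76.3% to 99.9% of each identifier's CPM in others. Library 3 was above library 2 for ENSMFAG00000044728, and library 4 was level with library 1 for ENSMFAG00000035694.

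The mean over others was 9.77 to 196 times the average of the 3 lineage means. This ratio is high by the choice of members and rests mostly on libraries 1 and 2. The highest single library held a median of 68.9% of an identifier's CPM in others, with a range of 47.7% to 79.6%. ENSMFAG00000002392 was the most evenly split and ENSMFAG00000035407 the least. The 10 are not the complete set of such rows. A further 23 identifiers had both an others mean and a ratio at least as high as the lowest among the members, 13.2 CPM and 9.77. In 19 of these 23, others libraries 1 and 2 both lay above libraries 3 and 4, as in 8 of the 10 members and in 18.7% of all identifiers with a count in others. The 23 were taken by their levels in these same 4 libraries, so that number is a description and no separate support.

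Others libraries 1 and 2 were also the deeper ones, with 7724136 and 8875456 counts against 5142836 and 6452562 in libraries 3 and 4. The number of detected identifiers did not order the 4 libraries in the same way. Library 3 had the most, with 17142, library 1 had 17078, library 2 had 16978 and library 4 had 14828. The part of depth in these levels was not tested. Across the 15375 identifiers that averaged 1 CPM or more, libraries 1 and 2 had a Spearman correlation of 0.918 of log2 CPM. Either of them correlated with library 3 or 4 at 0.780 to 0.863, and libraries 3 and 4 with each other at 0.782. These correlations include the 10 identifiers and are a description.

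In 6 of the 10 the exmc mean was above both the hypoblast and the epiblast mean, near the share of 43.6% among all identifiers with a Day 18 count. The 6 include ENSMFAG00000034121, ENSMFAG00000035407, ENSMFAG00000002462 and ENSMFAG00000035694, whose highest epiblast value was 0.669 CPM. ENSMFAG00000034121 had an exmc mean of 5.80 CPM ± 5.09 (SD, n = 6) and a hypoblast mean of 0.838 CPM ± 1.35 (SD, n = 3), with a count of 0 in each epiblast library. ENSMFAG00000035407 had an exmc mean of 13.6 CPM ± 14.2 (SD, n = 6), a hypoblast mean of 5.21 CPM ± 5.54 (SD, n = 3) and an epiblast mean of 0.0558 CPM ± 0.0966 (SD, n = 3). The library ranges of hypoblast and exmc overlapped for both.

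Exmc library 6 was the highest exmc library for 6 of the 10, as for 16.0% of all identifiers with a count in exmc. For 4 of these the gap to the next exmc library was wide. ENSMFAG00000046203 had 64.6 CPM there against at most 11.5 CPM in the others of the group, ENSMFAG00000035407 had 40.7 against at most 13.7 CPM, ENSMFAG00000038302 had 6.34 against at most 1.96 CPM, and ENSMFAG00000039504 had 4.42 against at most 0.554 CPM. Exmc library 6 also had the most counts of the exmc group, 6757471, and the most detected identifiers, 18034. Exmc library 1, the shallowest, had a count of 0 for 9 of the 10, as for 44.8% of all identifiers with a count in exmc. The part of depth in this order was not tested.

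At Day 20, which played no part in the choice, the same kind of concentration appeared in a single library. E20_1 library 2 was the highest of the 8 Day 20 libraries for 7 of the 10 identifiers, as for 12.1% of the 22028 identifiers with a Day 20 count. ENSMFAG00000038084 stood at 88.8 CPM there and at 0 to 3.79 CPM in the other 7, and this library was above others library 2, its highest at Day 18. ENSMFAG00000039504 had 68.8 CPM in E20_1 library 2, 5.66 CPM in E20_1 library 1 and 0.130 to 2.25 CPM in the other 6. ENSMFAG00000038302 had 37.8 CPM in E20_1 library 2, 5.54 CPM in E20_1 library 1 and 0 to 3.17 CPM elsewhere. For these 3 the highest Day 20 library was 23.4, 12.1 and 6.83 times the next.

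ENSMFAG00000002392 was again counted in every library. It had 1035 CPM in E20_1 library 2, 225 CPM in library 1, 122 CPM in library 3 and 126 CPM in library 4 of that set. In E20_2 it had 141, 83.6, 73.2 and 132 CPM in libraries 1 to 4. The lowest Day 20 library, at 73.2 CPM, lay just above the highest named-lineage library, at 72.3 CPM, a separation that 0.0611% of identifiers show. This separation was lost with CPM on library totals, at 71.2 and 77.1 CPM, and with DESeq2 size factors, at 69.8 and 71.9 CPM, and the named lineages were low in part by choice.

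ENSMFAG00000046203 had a second high library at Day 20. It stood at 198 CPM in E20_1 library 2 and 184 CPM in E20_2 library 3, next to 14.8 CPM in E20_1 library 1 and 0 to 4.56 CPM in the other 5. Both high values lay below those of others libraries 1 and 2 and above all other libraries of the series.

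The other 5 identifiers were scarce at Day 20. ENSMFAG00000034121 and ENSMFAG00000035407 each had 4.23 CPM from 38 counts in E20_1 library 2, with at most 0.353 and 2.12 CPM in the rest. ENSMFAG00000002462 was highest in E20_2 library 3, at 1.93 CPM from 16 counts, and ENSMFAG00000035694 in E20_2 library 1, at 1.94 CPM from 11 counts. ENSMFAG00000044728 had 11 counts in E20_1 library 1, or 1.38 CPM, and a count of 0 in the other 7 Day 20 libraries, which allows between 0.334 and 0.529 CPM each. All 10 identifiers had at least 1 CPM in some Day 20 library, as did 74.4% of all identifiers with a count.

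E20_1 library 2 was the deepest Day 20 library, with 9114870 counts, and had the most detected identifiers, 17679. E20_2 library 1 had nearly as many, 17630, with 5 of the 10 members at 1 CPM or more. E20_1 libraries 1 and 2 each had 7 at that level, and library 1, with 16840 detected identifiers, had 2 members at 10 CPM or more against 5 in library 2. The shares of all identifiers at these levels were not worked out per library. At least 1 count was present for 8 of the 10 in E20_1 library 2, as for 71.8% of all identifiers with a count. In E20_1 library 1 and E20_2 library 1 this held for 9 each, as for 68.4% and 71.6% of all. The part of depth was not tested. Over all 15375 identifiers, E20_1 library 2 correlated at 0.904 with others library 1 and 0.923 with others library 2. The other 7 Day 20 libraries correlated with these at 0.767 to 0.865 and 0.755 to 0.873. Some Day 18 libraries came close, with hypoblast library 3 at 0.897 and 0.901 and exmc library 6 at 0.900 and 0.867. E20_1 library 2 also correlated at 0.904 with E20_1 library 1 and at 0.904 with E20_2 library 3. A value near 0.904 was thus not particular to the libraries where the members were high. Others library 2 was the library most like E20_1 library 2 among all 24, and the reverse held as well. Of the 300 pairs of libraries, whose median was 0.807, 23 reached the value of others library 1 and E20_1 library 2. Among the 23 further identifiers with equally high ratios at Day 18, E20_1 library 2 was the highest Day 20 library for 17.

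The comparison of E20_1 with E20_2 was the only test between labelled groups that was independent of the choice of members. EdgeR's quasi-likelihood test called 0 of 13461 identifiers at an adjusted p of 0.05, or 0%, and 838 had an unadjusted p under 0.05. Of the members, 4 passed the filter on low counts, and 0 of these were called. ENSMFAG00000039504 had a mean of 19.1 CPM ± 33.2 (SD, n = 4) in the first set and 1.023 CPM ± 0.875 (SD, n = 4) in the second, and its log2 fold change was 4.26 (SE 1.55), with an adjusted p of 0.784 in edgeR. ENSMFAG00000038084 had means of 24.5 CPM ± 42.9 (SD, n = 4) and 1.73 CPM ± 1.66 (SD, n = 4), with a log2 fold change of 3.86 (SE 1.51) and the edgeR adjusted p again 0.784. ENSMFAG00000002392 had means of 377 CPM ± 441 (SD, n = 4) and 108 CPM ± 34.1 (SD, n = 4), and a log2 fold change of 1.85 (SE 0.698) at the same edgeR adjusted p, 0.784. These differences rested on E20_1 library 2. Without it the log2 fold changes were 1.34, 0.85 and 0.58.

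ENSMFAG00000046203 averaged 54.9 CPM ± 95.8 (SD, n = 4) in the first set and 46.9 CPM ± 91.5 (SD, n = 4) in the second, each mean set by a single library. Its log2 fold change was 0.25 (SE 1.93), with an edgeR adjusted p of 0.996, and became -2.74 without E20_1 library 2 and 5.70 without E20_2 library 3. No member had library ranges that parted the sets, while 1.95% of identifiers lay higher and 1.37% lower in E20_1 in that way. Because no label links a region to its embryo, the p-values reflect the spread among captures alone. That spread may be technical, and the p-values are too small if captures of a set came from the same embryo.

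**Figure D3:**
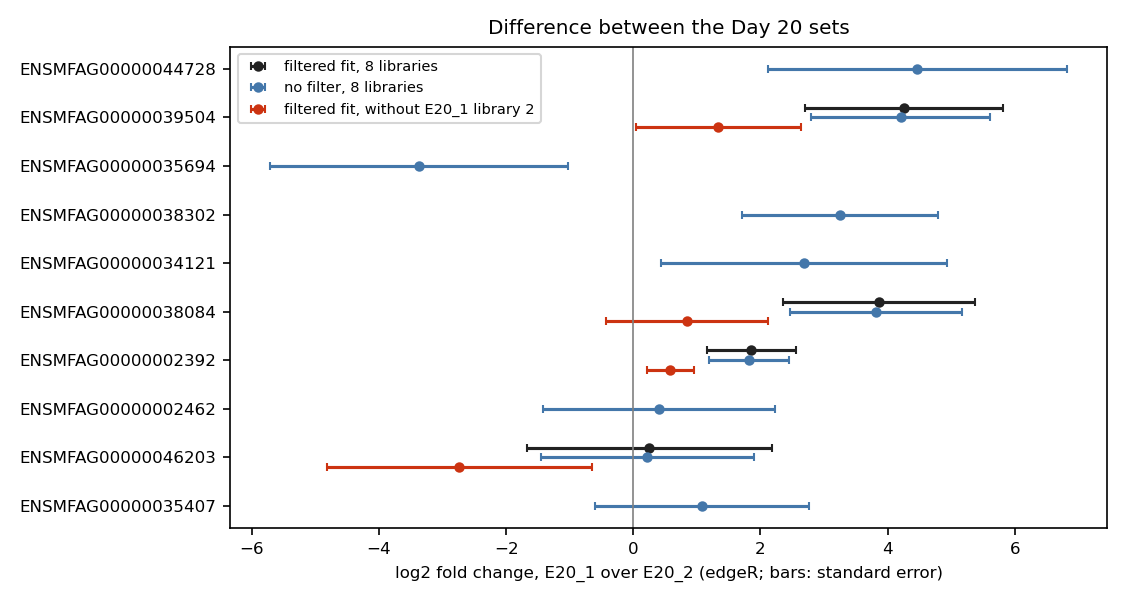
Log2 fold change of E20_1 over E20_2 in edgeR, with standard errors: black for the 4 identifiers that passed the filter, blue for all 10 in a fit without a filter, red for the filtered fit without E20_1 library 2. Leaving out that library takes ENSMFAG00000039504 from 4.26 to 1.34 and turns ENSMFAG00000046203 from 0.25 to -2.74.

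The Day 16 library, which has no replicate, had counts of 2 of the 10 identifiers, where 51.8% of all identifiers with a count in some library were detected in it. ENSMFAG00000002392 had 124 counts, or 30.8 CPM (95% exact Poisson interval 25.6 to 36.7, for counting error only), which lies within the range of the named lineages at Day 18. ENSMFAG00000038084 had 32 counts, or 7.94 CPM (95% exact Poisson interval 5.43 to 11.2), above all 12 named-lineage libraries and above others libraries 3 and 4. It was below others libraries 1 and 2 and E20_1 library 2, and above the other 7 Day 20 libraries. For the other 8, a count of 0 in this library of 4348127 counts allows up to 0.745 CPM.

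Whether the 10 rise together depended on the libraries in view. Over all 25 libraries the 45 pairs of members had a median Pearson correlation of log2 CPM of 0.589, with a range of 0.248 to 0.908. For every 10th identifier with at least 50 counts, 1819 in all, the median over their pairs was 0.0317. The choice of members fixes much of this, since all are high in others libraries 1 and 2. Without those 2 libraries the median of the 45 pairs was 0.269, with a range of -0.208 to 0.855, and it was 0.0318 for the 1819. The named-lineage libraries and the rest of others stayed in, and they too entered the choice of members. The 1819 were not picked by level in these libraries, so the gap between the medians may still be partly built in. All these correlations share the same libraries and depths and are given with no test.

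Likeness among the members was described for 2 sets noticed in the data, which were drawn up from levels in these same libraries, so that higher correlations within them are partly built in. The first holds ENSMFAG00000039504, ENSMFAG00000038302, ENSMFAG00000038084, ENSMFAG00000002392 and ENSMFAG00000046203, the 5 with 37.8 to 1035 CPM in E20_1 library 2. Their 10 pairs had a median correlation of 0.519 over the 23 libraries without others 1 and 2, with a range of 0.216 to 0.744. The second holds ENSMFAG00000034121, ENSMFAG00000035407, ENSMFAG00000002462 and ENSMFAG00000035694, the 4 with more in exmc than in the other lineages and at most 4.23 CPM at Day 20. Their 6 pairs had a median of 0.518 and a range of 0.271 to 0.855. The 20 pairs between the sets had a median of 0.125 and ranged from -0.208 to 0.396, so the ranges within and between the sets overlapped. The closest pair was ENSMFAG00000034121 with ENSMFAG00000035407, at 0.855, followed by ENSMFAG00000039504 with ENSMFAG00000038302, at 0.744. ENSMFAG00000044728 was outside both sets.

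**Figure D4:**
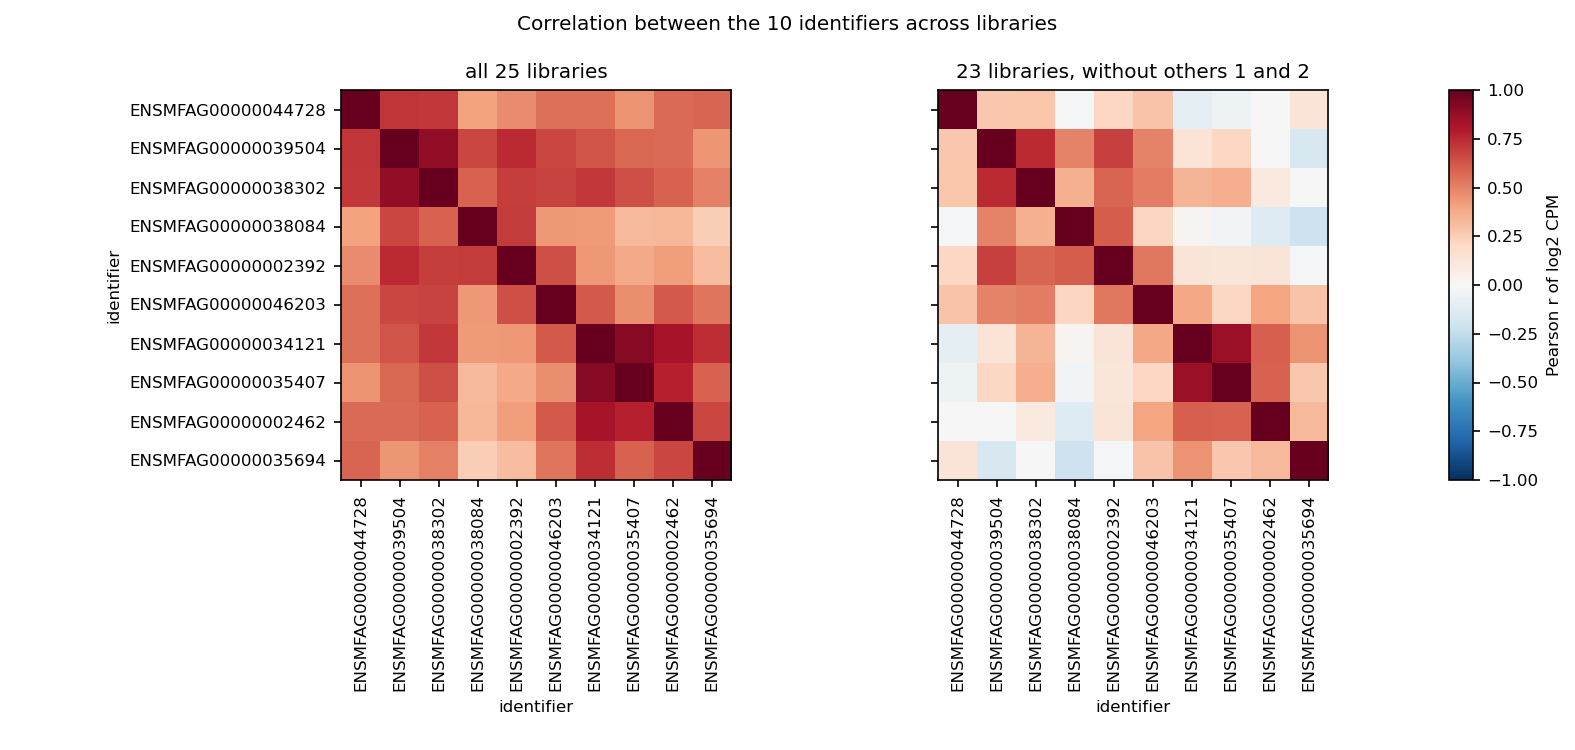
Pearson correlation of log2 CPM between the 10 identifiers over all 25 libraries (left) and over the 23 libraries without others 1 and 2 (right). The median of the 45 pairs goes from 0.589 to 0.269, and on the right the closest pairs are ENSMFAG00000034121 with ENSMFAG00000035407 and ENSMFAG00000039504 with ENSMFAG00000038302.

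For each member, the non-member with the most similar pattern over the 25 libraries was sought among 18181 identifiers with at least 50 counts. The highest likeness was that of ENSMFAG00000046203 with ENSMFAG00000032610, a Pearson correlation of 0.933, and of 0.911 over the 23 libraries without others 1 and 2. ENSMFAG00000032610 had 544 and 627 CPM in others libraries 1 and 2, 996 CPM in E20_1 library 2 and 527 CPM in E20_2 library 3. It also had 97.1 CPM in exmc library 6 and 66.1 CPM in epiblast library 3, the highest named-lineage libraries of both identifiers. In all other libraries it had 0 to 45.4 CPM.

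The other 9 members had a nearest non-member at 0.819 to 0.891. ENSMFAG00000002392 was most like ENSMFAG00000001251, at 0.819 over 25 libraries and 0.829 over 23, so this likeness was as large without others libraries 1 and 2. ENSMFAG00000001251 had 79.1 and 128 CPM in others libraries 1 and 2 and 102 CPM in E20_1 library 2. It had 121 CPM in E20_1 library 4 and 81.6 CPM in hypoblast library 2, so it did not share the marked rise of ENSMFAG00000002392. Both were lowest in exmc library 1, ENSMFAG00000001251 at 3.95 CPM and ENSMFAG00000002392 at 0.329 CPM. ENSMFAG00000038084 was most like ENSMFAG00000009562, at 0.872 and 0.825. ENSMFAG00000034121 was most like ENSMFAG00000003765, at 0.891 and 0.799. The likeness of ENSMFAG00000044728 to ENSMFAG00000034227 fell from 0.827 to 0.396, the lowest of the 10 over the 23 libraries. In these libraries ENSMFAG00000034227 had at most 6 counts, in E20_1 library 2, so the lower value rests on few counts. For ENSMFAG00000039504 the nearest was ENSMFAG00000044088, for ENSMFAG00000038302 it was ENSMFAG00000034334 and for ENSMFAG00000035407 it was ENSMFAG00000043126. ENSMFAG00000035694 was nearest to ENSMFAG00000006312 and ENSMFAG00000002462 to ENSMFAG00000030876. Over the 23 libraries these 5 likenesses were between 0.616 and 0.771. Some of them rest on few counts. In these libraries ENSMFAG00000006312 had 5 counts in exmc library 2, 29 in others library 4 and none in the rest. ENSMFAG00000030876 had at most 11 counts in any of them.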

How the data were processed

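For 25 libraries the authors deposited read counts, as whole numbers, for each Ensembl identifier. STAR 2.3.4 and RSEM appear in the submitters' processing notes with no role. Not given in the sources used here are the genome build, the annotation, the strand setting and any rounding of estimates, so identifiers that share reads with close copies are uncertain. Columns were matched to samples by title, with 0 columns left without a sample. The members and all lists were chosen with earlier results of these data known. Marker lists by symbol could not be read, as the files hold no symbols.

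Levels are CPM scaled by TMM in edgeR 4.0.16 (R 4.3.3), with a prior count of 2 on the log2 scale. The Day 20 sets were compared by edgeR's quasi-likelihood test after filterByExpr, two-sided, with Benjamini-Hochberg adjustment over all identifiers tested and a threshold of 0.05. It was tested on simulated data. Alternatives were DESeq2 1.42.0, limma 3.58.1 (voom with quality weights), DESeq2 size factors, other filters, the replicate number as a block, and each library left out. All 10 members are named, with the most correlated non-member of each. Library depth is given as total counts, and intervals cover counting error only. In 39 pairs of libraries of a group, a chi-square statistic per identifier of 37.6 to 264 lay above counting error, so each library was counted once. The lowest value, 37.6, was that of others libraries 1 and 2. This statistic does not tell whether captures came from the same embryo. Descriptions and figures used Python 3.11.15 with pandas 2.3.3 and matplotlib 3.10.9.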

Additional observations from a re-analysis of the deposited data

Results flagged for a closer look

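A search for single libraries lying apart from their group covered 39 sets, each the libraries of a group for 1 member, and found 18 on the CPM scale and 8 on the log2 scale. Chance alone gives about 1.95 in 39 sets of normally distributed values, but that figure is no yardstick here. The sets share libraries, many hold mostly counts of 0, where a single count can stand apart, and those in others and exmc hold values that chose the members. The values are therefore a description.

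In E20_1, library 2 stood apart for 6 members: ENSMFAG00000039504 at 68.8 CPM, ENSMFAG00000038302 at 37.8 CPM, ENSMFAG00000034121 at 4.23 CPM, ENSMFAG00000038084 at 88.8 CPM, ENSMFAG00000002392 at 1035 CPM and ENSMFAG00000046203 at 198 CPM. Library 1 stood apart for ENSMFAG00000044728 at 1.38 CPM and, from 1 count, for ENSMFAG00000035694 at 0.126 CPM. In E20_2 the values that stood apart were ENSMFAG00000035694 in library 1 at 1.94 CPM, ENSMFAG00000035407 in library 2 at 2.12 CPM, and ENSMFAG00000002462 at 1.93 CPM and ENSMFAG00000046203 at 184 CPM in library 3. In exmc, library 6 stood apart for ENSMFAG00000039504 at 4.42 CPM, ENSMFAG00000038302 at 6.34 CPM, ENSMFAG00000046203 at 64.6 CPM and ENSMFAG00000035407 at 40.7 CPM, and library 5 for ENSMFAG00000044728 at 0.277 CPM, which is 1 count. In others, library 1 stood apart for ENSMFAG00000044728 at 38.2 CPM. The other 9 members were not found in others by this search, which asks for a single library away from the rest.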

How the results depend on the processing

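The count of 0 identifiers called between the Day 20 sets held in edgeR with DESeq2 size factors, without a filter, with a filter of 1 CPM in 4 libraries, with the replicate block and in limma voom, and with each library left out, while DESeq2 called 13. DESeq2 called 0 members, with adjusted p-values of 0.182 to 0.949 for the 4 that it gave one. These were ENSMFAG00000039504, ENSMFAG00000038302, ENSMFAG00000002392 and ENSMFAG00000035407. DESeq2 gave no p-value for ENSMFAG00000038084 and ENSMFAG00000046203, which edgeR tested. Identifiers at an unadjusted p under 0.05 numbered 838, and 1281 in DESeq2, 1465 with the replicate block and 502 to 1413 with a library left out (502 without E20_1 library 1, 1413 without E20_1 library 4). The replicate numbers were not taken as paired, since deviations of same-numbered libraries correlated at 0.568, -0.249, -0.220 and 0.705, and 4 of the 8 libraries correlated best with their own number. The log2 fold change of ENSMFAG00000046203 ranged from -2.74 to 5.70 with a library left out and turned negative without E20_1 library 2 (-2.74) and without E20_2 libraries 1 (-0.18), 2 (-0.16) and 4 (-0.20). For the other 3 members tested it stayed positive, at 0.58 to 4.94. The members whose others libraries all lay above the named lineages numbered 1, and 1 to 3 with an others library left out (2 without library 3, 3 without library 4). That number was 1 without exmc libraries 1, 3 and 4, an alternative chosen after seeing the data. The median share of the highest others library, 68.9%, was 69.2% to 95.4% with a library left out (95.4% without library 1, 94.8% without library 2, 69.2% without library 4), libraries 1 and 2 being the pair that holds most of the CPM. The 1 member with all Day 20 libraries above the named lineages became 0 with CPM on library totals and 0 with DESeq2 size factors. The 7 members highest in E20_1 library 2 stayed 7 under both scalings, and both of these checks were chosen after seeing the data. Other scalings moved the members' mean levels in others and at Day 20 by -4.41% to 11.5%, each by less than the SD between libraries. Leaving out a Day 20 library left 9 to 10 members with a count and 9 to 10 with 1 CPM. At Day 20, 6 of the 10 members did not pass the filter on low counts, and a count of 0 there allows 0.334 to 0.529 CPM, so lower levels were not detectable at this depth.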
